A study of Mus musculus with 192 samples.

Results

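The response of the Nrf2-KO liver to space flight was examined in 11 liver samples, 5 from flown Nrf2-KO mice (FL_KO) and 6 from Nrf2-KO mice kept on the ground (GC_KO). They were taken by their tissue, genotype and condition labels from 192 samples, 24 of them from liver. Flight mouse 04 was left out of FL_KO because the study recorded an intestinal hemorrhage in it during the return flight. The study sequenced RNA from many tissues of WT and Nrf2-KO mice that had lived on the International Space Station or in the same cages on Earth. All mice were male, of the strain C57BL/6 per the labels, labelled 12 weeks old and housed 1 per cage. Nrf2-KO mice lack a functional Nfe2l2 gene in every cell from conception, so the liver had developed without Nrf2. Some Nrf2-KO mice carry a blood shunt inside the liver, and the study chose mice without it by how long they slept under anesthesia. FL_KO mice were launched, lived in orbit, splashed down, were transported and tested for behavior, and were then dissected. GC_KO mice went through a simulation of this schedule at another site some months later. Flight, return, site and season therefore cannot be told apart, and the word flight below stands for all of them. Livers of WT mice under the same conditions (FL_WT and GC_WT, 6 mice each) were used as the comparison.

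Nrf2, encoded by Nfe2l2, is a transcription factor that turns on genes for glutathione synthesis, detoxification and NADPH supply when electrophiles or oxidants inactivate its inhibitor Keap1. The liver stores and distributes lipid: after a meal, SREBP factors drive cholesterol and fatty acid synthesis, whereas in fasting PPARα drives fatty acid oxidation and ketone body production. It also disposes of ammonia in the urea cycle, secretes plasma proteins and inactivates foreign compounds.

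Gene levels are given as TPM, a unit scaled by transcript length and library total, in which levels of different genes can be compared. For GC_KO the lowest, median and highest of the 6 mice are given, and for FL_KO the mice 01, 02, 09, 11 and 12 in that order. Log2 fold changes are FL_KO minus GC_KO from edgeR's quasi-likelihood test on counts, with the standard error (SE), and a gene was called when its Benjamini-Hochberg adjusted p over all genes tested was under 0.05. Replicates are separate mice, so the error is the spread between mice. Libraries held 14433209 to 15111382 counts in GC_KO and 14868820 to 15318155 in FL_KO.

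The targeted gene was low in both Nrf2-KO groups. Nfe2l2 stood at 13.1, 15.8 and 17.3 TPM in GC_KO and at 19.6, 16.8, 23.5, 24.1 and 20.9 TPM in FL_KO, against 34.8 to 57.2 TPM in GC_WT and 41.8 to 66.2 TPM in FL_WT. Every Nrf2-KO mouse lay below every WT mouse, and where along the gene the remaining reads lay was not examined, since the table gives 1 value per gene. Between FL_KO and GC_KO the ranges of Nfe2l2 overlapped (log2 fold change 0.29 ± 0.10 (SE), adjusted p = 0.137). The hepatocyte marker Alb was at 40253 to 53705 TPM in GC_KO and 46370 to 57859 TPM in FL_KO, and all 15 hepatocyte markers were detected at 1 TPM or more.

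Of 13433 genes tested, 448 were called between FL_KO and GC_KO, which is 3.34% of them. FL_KO was higher for 176 genes (1.31%) and lower for 272 (2.02%). Called changes were mostly moderate: their median size was 0.67 on the log2 scale, 43 genes were at least 2-fold higher and 96 at least 2-fold lower. The TPM ranges of the mice did not overlap for 221 of the 448 called genes and for 796 of all genes tested (5.93%). Calls and ranges come from the same mice, so less overlap among called genes follows from their selection. The median gene changed by 0.0097. The balance of higher and lower calls depended on scaling: 39.3% of calls were higher here, 74.4% when counts were divided by library totals alone (where the median gene moved to 0.09), and 89.7% by limma on TPM (where it moved to 0.15). Directions below are relative to the median gene, and the lists named below kept the sign of their median under these scalings unless stated.

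Genes were grouped into 29 pathway lists and 14 lists of cell type markers. Called members were found in 22 pathway lists. The cholesterol list stood lowest, with the median of its members at −1.55, and male-biased liver genes, lipogenesis and MHC class II genes were also low. Female-biased liver genes, PPARα targets and the unfolded protein response had the highest medians, and the last of these had no called member.

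**Figure D1:**
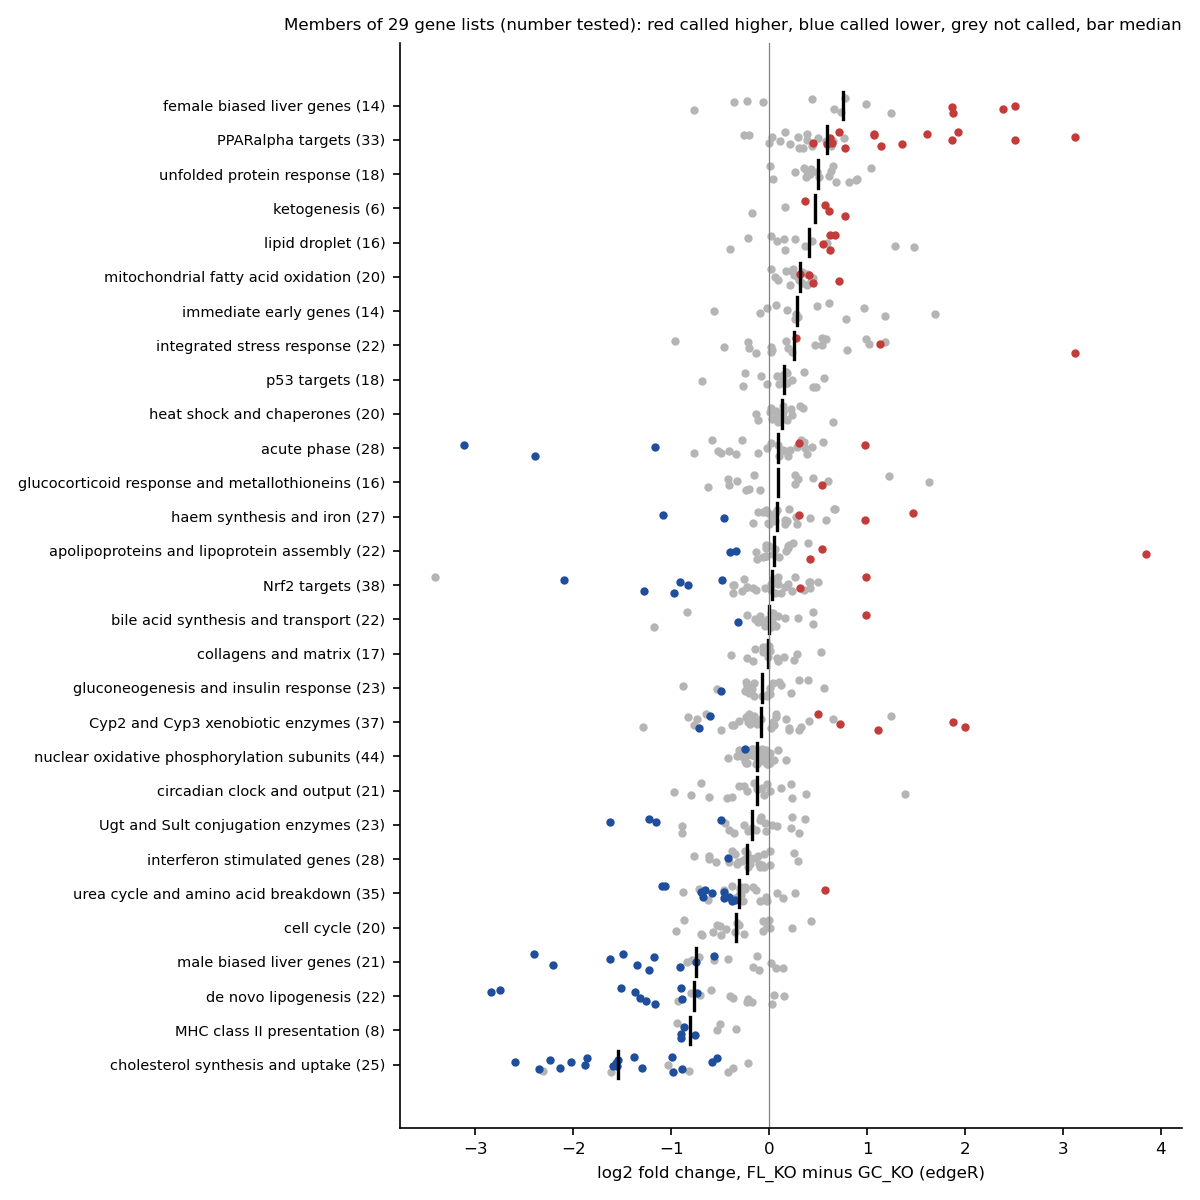
Each point is 1 tested gene, placed by its log2 fold change between FL_KO and GC_KO (x axis) in the list it belongs to (y axis, with the number of members tested). Red points were called higher, blue points lower and grey points not called, and the black bar is the median of the list; the cholesterol list has its median at −1.55 and all 25 points left of 0.

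Genes of cholesterol synthesis and uptake were lower in FL_KO. Of 25 members tested, 18 were called lower and none higher, the other 7 were also below 0, and the median was −1.55. Nsdhl, which removes a methyl group from sterol precursors, was at 11.8, 29.1 and 60.8 TPM in GC_KO and at 6.1, 7.58, 6.55, 6.47 and 12.1 TPM in FL_KO. The ranges met only at FL_KO 12, which lay just above the lowest ground mouse, GC_KO 02 (log2 fold change −2.13 ± 0.37 (SE), adjusted p = 0.00174). Dhcr7, which makes cholesterol from its last precursor, was at 34.2, 57.1 and 128 TPM in GC_KO and at 10.6, 11.5, 20.8, 17.9 and 36 TPM in FL_KO. Again only FL_KO 12 reached into the ground range (log2 fold change −1.88 ± 0.32 (SE), adjusted p = 0.00159).

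The lower levels ran along the route from mevalonate to cholesterol. In the mevalonate part, Mvk (−1.30), Pmvk (−1.38), Mvd (−1.57), Idi1 (−2.35) and Fdps (−1.86) were called lower, each value a log2 fold change. In the sterol part, Lss (−1.55), Cyp51 (−1.59), Msmo1 (−2.59), Hsd17b7 (−0.99) and Sc5d (−0.89) were called lower. Insig1, which holds SREBP in the endoplasmic reticulum when sterols are plentiful, was called lower as well (−1.55). Sqle, the squalene epoxidase, ranged from 2.66 to 74.3 TPM among ground mice alone and missed the threshold (log2 fold change −2.31 ± 0.67 (SE), adjusted p = 0.0598). Hmgcs1, which makes HMG-CoA, missed it too (log2 fold change −1.62 ± 0.49 (SE), adjusted p = 0.0785) and was called with the mouse number as a block (adjusted p = 0.0287). The 6 ground mice differed widely in this pathway, and GC_KO 11 had the highest level of Nsdhl, Dhcr7, Idi1, Msmo1, Hmgcs1, Sqle and Insig1. In every mouse number the median of the list was lower in the flown than in the ground mouse, with differences of −2.78 to −0.69 on log2 CPM. In all 5 numbers 18 of 25 members were lower (72%, against 7.80% of all genes). These differences come from the same mice as the calls and are a description, not separate support. The count of called members was 12 without FL_KO 02 and 8 when WT mice were left out of the fit, which lowers the number of mice from which the spread is estimated.

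**Figure D2:**
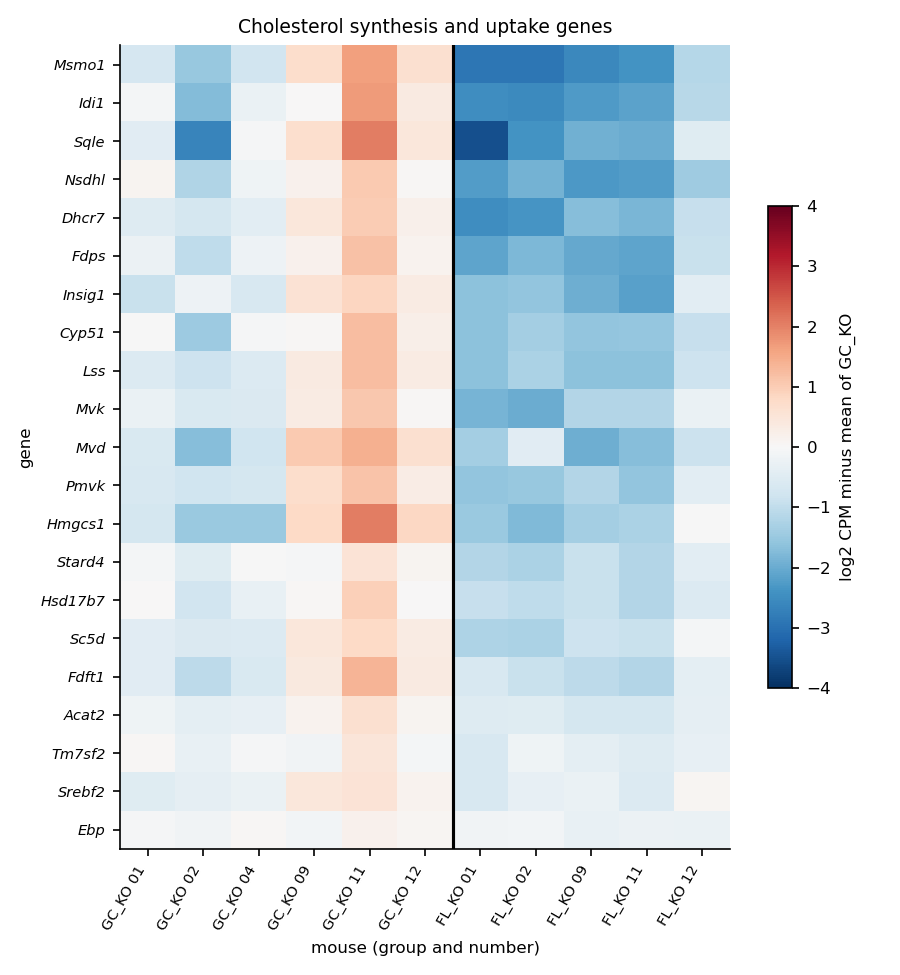
Each row is a gene of cholesterol synthesis and uptake, with some members of the list not drawn, and each column a mouse, with GC_KO left and FL_KO right of the black line. Colour gives log2 CPM minus the mean of GC_KO (blue lower, red higher); the FL_KO columns are mostly blue and GC_KO 11 is the reddest column.

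The promoters of 4 of these genes show the DNA next to their start sites; SREBP is known to act on sterol genes together with NF-Y, which binds the CCAAT box. Sequences are from RefSeq (GRCm38.p6), cover 250 bases before and 50 after the start, and read 5′ to 3′ on the plus strand, which is the coding strand of all 4. Capitals mark CCAAT or its complement ATTGG and, in Hmgcs1, the sterol element TCACNCCAC. The windows are chrX:72918271-72918570 for Nsdhl, chr13:119690101-119690400 for Hmgcs1, chr5:28071162-28071461 for Insig1 and chr13:8885356-8885655 for Idi1.
Nsdhl: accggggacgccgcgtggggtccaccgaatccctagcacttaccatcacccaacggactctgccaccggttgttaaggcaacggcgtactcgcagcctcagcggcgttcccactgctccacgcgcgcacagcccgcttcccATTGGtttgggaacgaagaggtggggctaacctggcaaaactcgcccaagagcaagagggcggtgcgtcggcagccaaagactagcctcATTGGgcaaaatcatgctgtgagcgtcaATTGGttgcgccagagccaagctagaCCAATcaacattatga
Hmgcs1: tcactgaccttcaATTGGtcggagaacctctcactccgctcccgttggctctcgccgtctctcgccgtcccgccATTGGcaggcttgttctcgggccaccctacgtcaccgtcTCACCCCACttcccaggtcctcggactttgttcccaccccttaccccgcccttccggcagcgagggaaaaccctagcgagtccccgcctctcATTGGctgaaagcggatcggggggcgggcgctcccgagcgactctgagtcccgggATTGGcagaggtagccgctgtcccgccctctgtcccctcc
Insig1: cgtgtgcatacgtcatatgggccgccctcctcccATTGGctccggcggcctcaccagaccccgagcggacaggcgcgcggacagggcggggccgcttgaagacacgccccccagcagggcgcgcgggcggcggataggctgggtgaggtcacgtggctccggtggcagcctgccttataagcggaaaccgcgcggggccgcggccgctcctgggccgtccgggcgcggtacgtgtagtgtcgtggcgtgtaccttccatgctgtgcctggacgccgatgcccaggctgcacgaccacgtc
Idi1: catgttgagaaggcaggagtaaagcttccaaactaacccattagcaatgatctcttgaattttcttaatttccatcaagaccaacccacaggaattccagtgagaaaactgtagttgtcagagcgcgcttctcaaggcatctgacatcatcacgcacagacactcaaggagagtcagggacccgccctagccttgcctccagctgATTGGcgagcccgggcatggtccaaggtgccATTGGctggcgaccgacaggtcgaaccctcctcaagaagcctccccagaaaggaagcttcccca
Nsdhl and Hmgcs1 hold 4 CCAAT matches each, Idi1 2 and Insig1 1. On either strand, CCAAT was found for 16 of the 17 cholesterol genes with an entry (94.1%), against 41.1% of 27025 genes with an entry and 43% of those tested in liver. The unfolded protein response genes, of which none was called, held it in 15 of 16 (93.8%), PPARα targets in 60%, lipogenesis genes in 68.8% and clock genes, of which none was called either, in 77.8%. TCACNCCAC was found for 1 cholesterol gene, Hmgcs1, against 1.44% of all genes with an entry, and for 1 gene each of the unfolded protein response, lipogenesis and PPARα lists. These counts describe letters in a window and do not show binding.

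Genes of fatty acid synthesis were lower as well. Of 22 lipogenesis genes tested, 10 were called lower and none higher (median −0.77). Scd1, which makes monounsaturated fatty acids (chr19:44394455-44407879, minus strand), was at 961, 1329 and 2041 TPM in GC_KO and at 254, 132, 206, 200.3 and 433 TPM in FL_KO. The highest flown mouse, FL_KO 12, had less than the lowest ground mouse (log2 fold change −2.75 ± 0.26 (SE), adjusted p = 1.69e-06). Thrsp, a cofactor of lipogenic transcription, was at 421, 827 and 1230 TPM in GC_KO and at 176, 183, 106, 34.4 and 128 TPM in FL_KO. The groups did not overlap and FL_KO 11 was lowest (log2 fold change −2.84 ± 0.46 (SE), adjusted p = 0.000834). Acacb, whose product malonyl-CoA restrains fatty acid entry into mitochondria, was at 24.2, 28.4 and 44.7 TPM in GC_KO and at 16, 16.9, 22.9, 14.2 and 23.4 TPM in FL_KO, again without overlap (log2 fold change −0.89 ± 0.14 (SE), adjusted p = 0.000638). Acly (−1.17), Acaca (−0.74), Fasn (−1.52) and Elovl6 (−1.26), which supply acetyl-CoA and build and lengthen palmitate, were called lower too. The call of Fasn held in 6 of 11 fits that left out a mouse. In addition Pklr, Acss2 and Aacs were called lower, by −0.90, −1.32 and −1.37. With the block, 12 members were called lower.

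Genes of fatty acid use were higher. Of 33 PPARα targets tested, 15 were called higher and none lower (median 0.59). Fgf21, a hormone of the fasted liver (chr7:45613886-45615490, minus strand), was at 0.34, 1.01 and 1.97 TPM in GC_KO and at 10.4, 21.5, 6.33, 7.32 and 6.94 TPM in FL_KO. Every flown mouse was above every ground mouse, and FL_KO 02 stood far above the other 4 (log2 fold change 3.13 ± 0.42 (SE), adjusted p = 0.000211). Cyp4a14, an omega-hydroxylase of fatty acids, was at 164, 369 and 482 TPM in GC_KO and at 1978, 1391, 1225, 1361 and 1023 TPM in FL_KO, without overlap (log2 fold change 1.87 ± 0.35 (SE), adjusted p = 0.00316). Vnn1, a pantetheinase, was at 6.67, 12.6 and 23.8 TPM in GC_KO and at 89, 87.8, 33.8, 39.7 and 25.5 TPM in FL_KO. Here FL_KO 01 and FL_KO 02 were more than double the other flown mice, and the lowest flown mouse was just above the highest ground mouse (log2 fold change 1.93 ± 0.35 (SE), adjusted p = 0.0021). Acot1, a cytosolic acyl-CoA thioesterase, was at 26.2, 30.7 and 40.4 TPM in GC_KO and at 153, 119.5, 63.3, 56.2 and 57.4 TPM in FL_KO (log2 fold change 1.36 ± 0.24 (SE), adjusted p = 0.0019). Its close relatives Acot2, Acot3 and Acot4 were also called higher, by 1.61, 2.51 and 1.14, but reads can be divided among these near-identical genes. Acot3 in FL_KO 01, at 149.8 TPM, was far above the other flown mice, and the call of Acot3 was lost without it. Ppara itself overlapped between groups (log2 fold change 0.35 ± 0.20 (SE), adjusted p = 0.433). Without FL_KO 01 the count of PPARα targets called was 8, and it was 7 when WT mice were left out of the fit.

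Some genes of mitochondrial fatty acid oxidation and of ketogenesis were called higher. All 20 fatty acid oxidation genes were above 0 (median 0.31) and 4 were called higher. Acadm, the medium-chain acyl-CoA dehydrogenase, was at 171, 202 and 226 TPM in GC_KO and at 463, 399, 337, 328 and 291 TPM in FL_KO (log2 fold change 0.71 ± 0.13 (SE), adjusted p = 0.00198). Cpt2, the inner-membrane carnitine palmitoyltransferase, was at 96, 103 and 125 TPM in GC_KO and at 138, 141, 159, 139 and 158 TPM in FL_KO (log2 fold change 0.32 ± 0.07 (SE), adjusted p = 0.0112). Neither gene overlapped between groups. The other called members were Hadhb (0.45), whose call held in 5 of 11 fits that left out a mouse, and Acadl (0.40). The count was 6 by DESeq2, 14 with library totals, 16 by limma on TPM, 9 with FL_KO 04 included and 1 when WT mice were left out of the fit. Cpt1a, the entry enzyme, overlapped between groups (log2 fold change 0.21 ± 0.26 (SE), adjusted p = 0.774) and was called with the block (adjusted p = 0.0279), where 8 members were called. The count of 4 became 7 without GC_KO 01 and 2 without FL_KO 01, FL_KO 02, GC_KO 02, GC_KO 09, GC_KO 11 or GC_KO 12.

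Of 6 ketogenesis genes, 4 were called higher. Bdh1, which reduces acetoacetate to β-hydroxybutyrate, was at 92, 123 and 155 TPM in GC_KO and at 248, 227, 195, 191 and 163 TPM in FL_KO. The lowest flown mouse lay above the highest ground mouse (log2 fold change 0.61 ± 0.14 (SE), adjusted p = 0.02). Acat1, which joins acetyl-CoA units, was called higher by 0.37. The count was 2 without FL_KO 01 or FL_KO 02, and the call of Bdh1 was lost without either (adjusted p = 0.0728 and 0.0658).

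Apoa4, an apolipoprotein of triglyceride-rich particles (chr9:46240696-46243459, plus strand), had the smallest adjusted p of the genes named here. It was at 33.1, 38.7 and 45.5 TPM in GC_KO and at 644, 572, 834, 474 and 655 TPM in FL_KO. The lowest flown mouse stood more than 10-fold above the highest ground mouse (log2 fold change 3.85 ± 0.21 (SE), adjusted p = 1.05e-10). Of the other 21 apolipoprotein and lipoprotein genes, 2 were called higher and 2 lower. Lipc, hepatic lipase, was called higher (0.54), as was Apoh (0.42), a phospholipid-binding plasma protein. Apom, which carries sphingosine-1-phosphate, and Abca1, which exports cholesterol to HDL, were called lower by −0.40 and −0.34, but their TPM ranges overlapped and both calls were lost with limma on TPM and with library totals. The count of 2 lower was 1 without FL_KO 01, FL_KO 11, GC_KO 02 or GC_KO 04 and 0 without FL_KO 02. Among 16 lipid droplet genes 4 were called higher, with a median of 0.40 over the list. Mgll, which cleaves monoglycerides, was at 89.1, 104 and 120.2 TPM in GC_KO and at 187, 183, 156, 148 and 169.9 TPM in FL_KO (log2 fold change 0.55 ± 0.11 (SE), adjusted p = 0.0043), and Hsd17b11, a droplet-associated dehydrogenase, was called higher too (0.62). Plin2, the main coat protein of hepatocyte droplets, was at 90.1, 133 and 192 TPM in GC_KO and at 252, 235, 192, 243 and 235 TPM in FL_KO (log2 fold change 0.62 ± 0.16 (SE), adjusted p = 0.0271). It overlapped at FL_KO 09, which lay apart from the other flown mice, and its call was lost with the block (adjusted p = 0.0633). The list count was 2 without FL_KO 01, FL_KO 02, GC_KO 02 or GC_KO 04.

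Gm15441, a transcript annotated as antisense (chr3:96555765-96566801, minus strand), spans the gene Txnip on the opposite strand (chr3:96557957-96561883, plus strand), an inhibitor of thioredoxin. Gm15441 was at 0, 0.16 and 0.31 TPM in GC_KO and at 14.3, 7.59, 1.46, 1.42 and 0.54 TPM in FL_KO. FL_KO 01 and FL_KO 02 were highest, and no ground mouse reached 0.5 TPM (log2 fold change 4.85 ± 0.78 (SE), adjusted p = 0.000836). Txnip was at 16.2, 25.9 and 67.4 TPM in GC_KO and at 77.1, 52.2, 58.2, 77.1 and 47.1 TPM in FL_KO and was not called (log2 fold change 0.74 ± 0.37 (SE), adjusted p = 0.339). The strand setting of the counting is not given in the sources used here, so reads of this pair may not have been told apart.

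**Figure D3:**
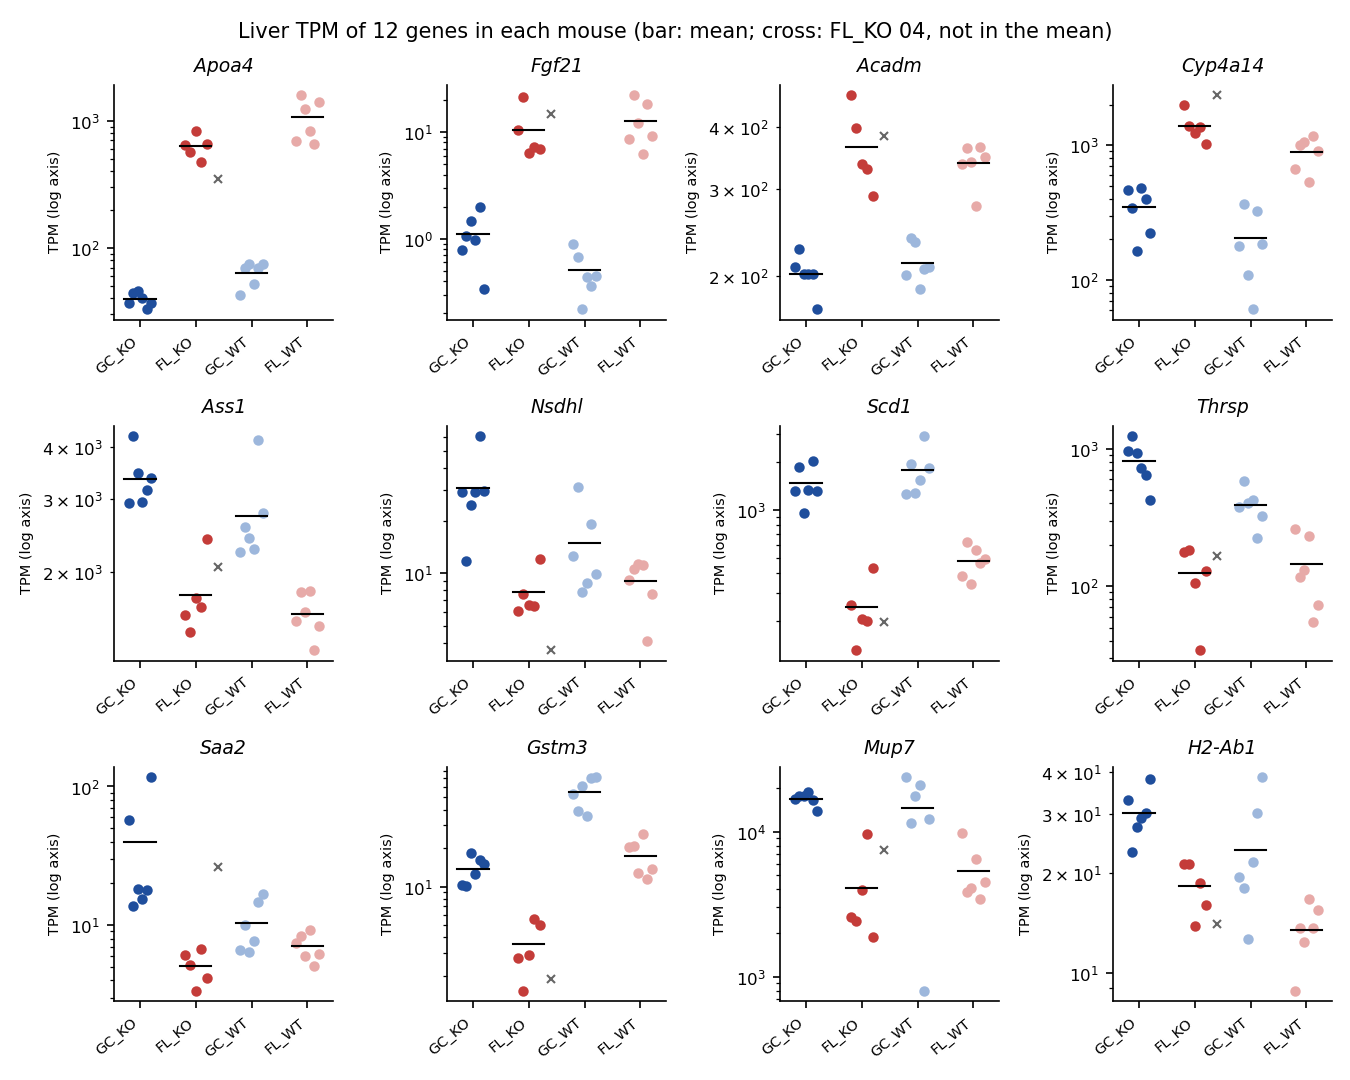
TPM on a log axis of 12 genes in each mouse of the 4 liver groups (x axis), with points for mice, black bars for means and a cross for the left-out mouse FL_KO 04. Apoa4, Fgf21, Acadm and Cyp4a14 lie higher in FL_KO than in GC_KO without overlap, and Ass1, Scd1, Thrsp, Saa2, Gstm3, Mup7 and H2-Ab1 lie lower without overlap.

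Known targets of Nrf2 were called in both directions in the absence of Nrf2. Of 38 tested, 2 were called higher and 6 lower, and the median was 0.024, near that of all genes. The higher count was 4 by DESeq2 and with library totals and 8 by limma on TPM, where the lower counts were 7, 6 and 6. The lower group was mostly glutathione S-transferases, which attach glutathione to reactive compounds. Gstm3 (chr3:107963696-107969283, minus strand) was at 10.1, 13.8 and 18.2 TPM in GC_KO and at 2.76, 1.53, 2.91, 5.59 and 5.04 TPM in FL_KO. Gstm6 was at 52.4, 70.2 and 76.8 TPM in GC_KO and at 36.8, 35.4, 39, 41.6 and 37.8 TPM in FL_KO, the flown mice lying within a narrow range. The groups were apart for Gstm3 (log2 fold change −2.10 ± 0.29 (SE), adjusted p = 0.000234) and for Gstm6 (log2 fold change −0.98 ± 0.097 (SE), adjusted p = 3.9e-06). Gstp1 was at 1970.5, 2303 and 2482 TPM in GC_KO and at 1096, 966, 1609.9, 1439.5 and 1607 TPM in FL_KO, again apart (log2 fold change −0.91 ± 0.12 (SE), adjusted p = 0.000211). Gstm2 fell as well (−1.28), and Gstm genes are similar enough that reads may be split among them. The other 2 were enzymes of the pentose phosphate pathway, a source of NADPH: Pgd was called lower by −0.83 and Tkt by −0.48. Abcc3, a transporter that exports conjugates to the blood, was at 9.27, 14.7 and 19 TPM in GC_KO and at 38.9, 43, 30.2, 27.9 and 22 TPM in FL_KO, with every flown mouse above every ground mouse (log2 fold change 0.99 ± 0.18 (SE), adjusted p = 0.00284). Gclm, the modifier subunit of the enzyme that limits glutathione synthesis, was called higher by 0.31 with a slight overlap between groups. Its call was lost without FL_KO 01, FL_KO 09, FL_KO 11, FL_KO 12, GC_KO 01, GC_KO 02 or GC_KO 04, and with FL_KO 04 included. Nqo1, the most used reporter of Nrf2 activity, was at 0.77 to 1.35 TPM in GC_KO and 0.28 to 1.86 TPM in FL_KO (log2 fold change 0.12 ± 0.29 (SE), adjusted p = 0.902), and Hmox1 (log2 fold change −0.17 ± 0.21 (SE), adjusted p = 0.781) and Srxn1 (log2 fold change 0.26 ± 0.26 (SE), adjusted p = 0.715) also overlapped. Gclc, the catalytic subunit, was called only with the block (adjusted p = 0.0132), where the list had 3 calls higher and 8 lower.

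Other enzymes of foreign-compound metabolism were divided. Of 37 Cyp2 and Cyp3 genes tested, 5 were called higher and 2 lower. Cyp2c38 was at 22.4, 28.6 and 32 TPM in GC_KO and at 79.3, 62.3, 69, 57.3 and 65 TPM in FL_KO, apart in all mice (log2 fold change 1.11 ± 0.18 (SE), adjusted p = 0.000721). Cyp2b10, the classic target of the receptor CAR, was at 1.38, 2.26 and 4.79 TPM in GC_KO and at 17.1, 13, 10.4, 7.3 and 8.75 TPM in FL_KO (log2 fold change 1.87 ± 0.47 (SE), adjusted p = 0.027). It did not overlap, but the adjusted p was 0.05004 with the block, and the call was lost without FL_KO 01, FL_KO 02, GC_KO 01, GC_KO 04, GC_KO 09 or GC_KO 11. Cyp2a22, which has close paralogs, was at 0.88, 2.02 and 2.66 TPM in GC_KO and at 18.6, 8.23, 5.45, 4.74 and 4.52 TPM in FL_KO, with FL_KO 01 far above the rest (log2 fold change 2.0 ± 0.43 (SE), adjusted p = 0.00938). Cyp2f2, an enzyme of periportal hepatocytes, fell (−0.60), as did the vitamin D 25-hydroxylase Cyp2r1 (−0.72). The higher count was 3 without FL_KO 01 and 2 without FL_KO 02, and the lower count was 1 without FL_KO 01 or GC_KO 11. The median of this list, −0.079, turned positive with library totals and with TPM.

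Of 23 Ugt and Sult enzymes, which conjugate glucuronic acid or sulfate, 4 were called lower and none higher. Ugt2b1 was at 212, 319 and 381 TPM in GC_KO and at 133, 166, 153, 166 and 114 TPM in FL_KO, without overlap (log2 fold change −1.23 ± 0.15 (SE), adjusted p = 9.65e-05). Ugt2b38 (−1.62), Ugt2b35 (−0.49) and Ugt1a5 (−1.15) were the others, and Ugt1a5 was not called with the block (adjusted p = 0.0562). The count was 1 without FL_KO 01 and 2 without FL_KO 02, FL_KO 09, FL_KO 12, GC_KO 04 or GC_KO 11.

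Genes that differ between the sexes in mouse liver were among the calls in these male mice, the male-biased lower and the female-biased higher. Of 21 male-biased genes tested, 10 were called lower and none higher (median −0.75), and 4 of 14 female-biased genes were called higher and none lower (median 0.75). Serpina1e, an α1-antitrypsin gene, was at 16028, 19834 and 22500 TPM in GC_KO and at 4592, 7333, 10362, 10952 and 9744 TPM in FL_KO, without overlap (log2 fold change −1.35 ± 0.21 (SE), adjusted p = 0.000575). Selenbp2 was at 893, 1592 and 1967 TPM in GC_KO and at 49.1, 228, 492, 603 and 185 TPM in FL_KO. The flown mice were all lower and spread more than 10-fold among themselves (log2 fold change −2.41 ± 0.60 (SE), adjusted p = 0.0274), and the call was lost without FL_KO 01, FL_KO 02, FL_KO 12 or GC_KO 04. The called female-biased genes included Acot3, Cyp4a14 and Cyp2b10, which are also members of other lists here. Serpina1e and Selenbp2 have near-identical relatives, so their values may include reads of those genes. Counts were 6 lower of the male-biased list without FL_KO 01, FL_KO 02 or FL_KO 12, and 2 higher of the female-biased list without FL_KO 01.

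The major urinary proteins (Mup), pheromone carriers made by male liver under growth hormone pulses, were part of this. All Mup genes together took 6.16% to 7.61% of TPM in GC_KO and 2.55% to 5.32% in FL_KO, without overlap. In WT mice the ranges overlapped, at 2.97% to 10.6% in GC_WT (median 8.56%) and 3.47% to 7.18% in FL_WT (median 4.34%). The ground mouse GC_WT 08 had 799 TPM of Mup7, less than any flown mouse of either genotype. Among 19 Mup genes tested, 6 were called lower and none higher (median −1.38). Mup7 (chr4:60066469-60070475, minus strand) was at 13958, 17286 and 18695 TPM in GC_KO and at 2572, 2423, 3978, 9666 and 1867 TPM in FL_KO. FL_KO 11 stood well above the other flown mice and below all ground mice (log2 fold change −2.21 ± 0.55 (SE), adjusted p = 0.027), and the call was lost without FL_KO 01, FL_KO 02, FL_KO 09 or FL_KO 12. Mup8 was called narrowly (log2 fold change −2.48 ± 0.69 (SE), adjusted p = 0.0487), lost the call with the block (adjusted p = 0.055) and kept it in 1 of 11 fits that left out a mouse. Mup20, known as darcin, was at 2822 to 4202 TPM in GC_KO and 2801 to 4915 TPM in FL_KO (log2 fold change −0.11 ± 0.16 (SE), adjusted p = 0.839). Mup genes are near-identical, so the division of reads among them is uncertain and their sum is the firmer value. The 10 most abundant genes took 23.9% to 26.8% of TPM in GC_KO and 20.6% to 22.9% in FL_KO, which moves TPM of all other genes upward.

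Genes of nitrogen disposal were lower. Of 35 urea cycle and amino acid breakdown genes, 11 were called lower and 1 higher (median −0.31). Ass1, the enzyme that brings aspartate nitrogen into the cycle, was at 2932, 3265 and 4253 TPM in GC_KO and at 1574, 1432, 1733, 1645 and 2406 TPM in FL_KO. The groups were apart, and FL_KO 12 was the highest of the flown mice (log2 fold change −1.09 ± 0.14 (SE), adjusted p = 8.69e-05). Cps1, the first step of the cycle, was at 1123, 1269 and 1359.6 TPM in GC_KO and at 667, 788, 1135, 798 and 1124 TPM in FL_KO, with FL_KO 09 and FL_KO 12 just above the lowest ground mouse (log2 fold change −0.65 ± 0.11 (SE), adjusted p = 0.00125). Otc (−0.41), Asl (−0.47) and Arg1 (−0.46), the other 3 steps, were called lower too. Gnmt, which disposes of excess methyl groups, was called lower (−0.70), as were Bhmt (−1.07), Gls2 (−0.58), Hgd (−0.38) and Uroc1 (−0.35). The lower count was 7 without FL_KO 01 or FL_KO 02. Several of these genes, among them Ass1, Arg1 and Gls2, are also in the list of periportal hepatocyte markers. The periportal values therefore repeat part of this result and are not separate from it. The periportal markers summed to 6181 to 9825 TPM in GC_KO and 4374 to 6253 TPM in FL_KO. Of 14 periportal markers 5 were called lower, against 1 of 14 pericentral markers (2 without FL_KO 02), and without FL_KO 09 or FL_KO 11 there was also 1 periportal marker called higher. Fewer cells of a type and less RNA per cell cannot be told apart in samples of whole liver. Of 23 genes of gluconeogenesis and insulin response, 1 was called, the gluconeogenic enzyme Fbp1, which was lower (−0.49). The list's median, −0.07, turned positive with library totals and with TPM, and 1 member was called higher without FL_KO 11 or GC_KO 02.

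Of 28 acute phase genes tested, 3 were called lower and 2 higher. Saa2, a serum amyloid A (chr7:46751790-46754313, plus strand), was at 13.7, 18 and 117 TPM in GC_KO and at 6.05, 5.16, 3.36, 6.77 and 4.16 TPM in FL_KO. All flown mice were lower and lay close together, whereas GC_KO 01 and GC_KO 12 were far above the other ground mice (log2 fold change −3.11 ± 0.49 (SE), adjusted p = 0.000721). Its near copy Saa1 showed the same 2 high ground mice and an overlap at FL_KO 02 (log2 fold change −2.39 ± 0.54 (SE), adjusted p = 0.0136), and it was not called with the block (adjusted p = 0.0888). Orm1, orosomucoid, was at 649, 932 and 1658 TPM in GC_KO and at 337, 487, 489, 857 and 432 TPM in FL_KO, overlapping at FL_KO 11 (log2 fold change −1.16 ± 0.22 (SE), adjusted p = 0.00389). Hamp, hepcidin, which lowers iron export into blood, was at 685, 1758 and 2287 TPM in GC_KO and at 2946, 4553, 4420.1, 2918 and 3139.9 TPM in FL_KO, without overlap (log2 fold change 0.98 ± 0.23 (SE), adjusted p = 0.0156). Cp, ceruloplasmin, was called higher (0.31) but not with the block (adjusted p = 0.112). The higher count was 0 without FL_KO 02 and 1 without GC_KO 04 or GC_KO 11.

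In the haem and iron list, Hamp was joined by Id1, a target of the BMP signal that also drives Hamp, at 2.41, 4.24 and 5.32 TPM in GC_KO and 14.9, 21.9, 9.78, 7.14 and 5.99 TPM in FL_KO (log2 fold change 1.47 ± 0.33 (SE), adjusted p = 0.0132). Tfrc, the transferrin receptor, was at 6.84, 10.6 and 15.6 TPM in GC_KO and at 4.54, 6.47, 8.3, 5.72 and 5.93 TPM in FL_KO, with an overlap at FL_KO 09 (log2 fold change −1.09 ± 0.21 (SE), adjusted p = 0.00425). Hfe, which takes part in iron sensing, was called lower (−0.46) except by limma on TPM. In all, 3 of 27 genes were called higher and 2 lower, and without FL_KO 02 none was called higher. Alas2, the haem synthesis enzyme of red cell precursors, was at 85.8, 98.2 and 117 TPM in GC_KO and at 79.2, 79.9, 62.8, 63.5 and 50.7 TPM in FL_KO (log2 fold change −0.69 ± 0.13 (SE), adjusted p = 0.00316). Markers of erythroid cells, which could carry blood RNA, summed to 557 to 1197 TPM in GC_KO and 330 to 828 TPM in FL_KO. Their part in these values was not tested.

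MHC class II genes, used by antigen-presenting cells, were lower. All 8 members tested were below 0 (median −0.81) and 4 were called lower. H2-Ab1 was at 23, 29.8 and 38.1 TPM in GC_KO and at 21.2, 21.3, 13.8, 18.6 and 16 TPM in FL_KO, without overlap (log2 fold change −0.87 ± 0.20 (SE), adjusted p = 0.0192). H2-Aa (−0.90), H2-Eb1 (−0.90) and the invariant chain Cd74 (−0.76) were also called, with FL_KO 01 the highest flown mouse for H2-Aa and H2-Eb1. No member was called without FL_KO 09 or FL_KO 12, and 2 were called without FL_KO 02, GC_KO 04 or GC_KO 12. Markers of Kupffer cells, the resident macrophages, summed to 148 to 265 TPM in GC_KO and 107 to 208 TPM in FL_KO. Of 12 Kupffer markers, 11 were below 0 and 11 had an unadjusted p under 0.05 by edgeR, with a median of −0.54. Only 2 were called lower, Csf1r, the receptor for macrophage growth factor (−0.76), and Folr2 (−1.0). With the block none was called, and the count was also 0 without FL_KO 01, FL_KO 02, FL_KO 11, FL_KO 12, GC_KO 02, GC_KO 04 or GC_KO 12 and 1 without GC_KO 09 or GC_KO 11. Clec4f, which only Kupffer cells express in mouse liver, was at 21.2 to 37.2 TPM in GC_KO and 11.3 to 31.1 TPM in FL_KO (log2 fold change −0.60 ± 0.21 (SE), adjusted p = 0.135). Markers of B and plasma cells ranged from 23.4 to 127 TPM in GC_KO and from 19.9 to 267 TPM in FL_KO, and those of T and NK cells from 1.97 to 8.22 and from 2.33 to 5.77 TPM. The part of any of these cells in the MHC class II result was not tested. Of 28 interferon-stimulated genes 1 was called, Bst2, a protein that tethers virus particles, which was lower (−0.42) except by limma on TPM.

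Markers of other cells showed little change. Sinusoidal endothelial markers summed to 126 to 200 TPM in GC_KO and 144 to 196 TPM in FL_KO, and stellate cell markers to 151 to 223 and 202 to 315 TPM, with no call in either list by edgeR, DESeq2 or limma (2 and 0 members with an unadjusted p under 0.05). All 12 neutrophil markers were under 1 TPM in every Nrf2-KO mouse. Of 13 pancreatic acinar markers 12 were under 1 TPM in every Nrf2-KO mouse, 5 of them at 0, and the remaining gene, Cela1, was called lower (−0.91), with the call lost without FL_KO 01, FL_KO 02, FL_KO 09, FL_KO 12, GC_KO 02, GC_KO 04, GC_KO 09, GC_KO 11 or GC_KO 12. Of 10 skeletal muscle markers 8 were under 1 TPM in every Nrf2-KO mouse.

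Stress and growth lists gave few calls. All 18 unfolded protein response genes were above 0, with a median of 0.50, and none was called by edgeR (11 had an unadjusted p under 0.05, and DESeq2 called 3). Hspa5, the main chaperone of the endoplasmic reticulum, was at 271, 379 and 796 TPM in GC_KO and at 686, 1224, 688, 1103 and 673 TPM in FL_KO. GC_KO 01 lay within the flown range, and the change was not called (log2 fold change 0.81 ± 0.32 (SE), adjusted p = 0.194). The member with the smallest p was Dnajc3 (log2 fold change 0.38 ± 0.11 (SE), adjusted p = 0.0555). Without FL_KO 01, 4 members were called higher, without GC_KO 01, 1, and by limma on TPM, 9. Of 22 genes of the integrated stress response, 3 were called higher: Fgf21, the amino acid transporter subunit Slc3a2 (0.27) and the lipoprotein receptor Vldlr (1.13). That count was 1 without FL_KO 01, GC_KO 04, GC_KO 11 or GC_KO 12, and 1 member was called lower without FL_KO 01, FL_KO 02 or GC_KO 11. In the glucocorticoid list 1 of 16 genes was called, Hsd11b1, which regenerates active glucocorticoid. It was at 199, 248 and 281 TPM in GC_KO and at 453, 413, 373, 362 and 371 TPM in FL_KO, without overlap (log2 fold change 0.54 ± 0.086 (SE), adjusted p = 0.000721).

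EdgeR called no member among 20 heat shock genes (smallest p for Hspb1, log2 fold change 0.34 ± 0.18 (SE), adjusted p = 0.38), 18 p53 targets (Ccng1, log2 fold change 0.17 ± 0.062 (SE), adjusted p = 0.159), 20 cell cycle genes (Mcm6, log2 fold change −0.87 ± 0.26 (SE), adjusted p = 0.0712), 17 collagen and matrix genes (Mmp2, log2 fold change 0.53 ± 0.31 (SE), adjusted p = 0.447) or 14 immediate early genes (Jun, log2 fold change 0.97 ± 0.30 (SE), adjusted p = 0.081). An unadjusted p under 0.05 was found for 0, 1, 3, 0 and 4 members of these lists, against 15.4% of all genes. DESeq2 called 1 cell cycle gene lower and 2 immediate early genes higher, limma on TPM called 1 heat shock gene, 1 p53 target and 2 immediate early genes higher, and library totals gave 3 immediate early genes higher. With FL_KO 04 included, 1 cell cycle gene was called lower and 2 immediate early genes higher. The medians of the cell cycle list (−0.34) and the collagen list (−0.0076) turned positive with TPM, the latter also with library totals. Jun was called higher with the block (adjusted p = 0.00101), without FL_KO 12 and without GC_KO 01, and 3 immediate early genes were called with the block. Without GC_KO 02, 2 cell cycle genes were called lower, and without FL_KO 11, FL_KO 12 and GC_KO 01, 1, 2 and 1 immediate early genes were called higher. Among 44 nuclear subunits of oxidative phosphorylation 1 was called, Atp5a1 of ATP synthase (log2 fold change −0.25 ± 0.07 (SE), adjusted p = 0.0498), and it was called in 2 of 11 fits that left out a mouse; the median of the list, −0.12, turned positive with TPM. Of 22 bile acid genes, Abcc3 was called higher and the sterol 27-hydroxylase Cyp27a1 lower (−0.32); the latter call held in 2 of 11 fits that left out a mouse, and a 2nd gene was called higher without FL_KO 12 or GC_KO 01. Cyp7a1, the rate-limiting enzyme of bile acid synthesis, was at 62, 119 and 162 TPM in GC_KO and at 20.1, 17.6, 141, 30.6 and 100.5 TPM in FL_KO. FL_KO 09 and FL_KO 12 lay within the ground range while the other 3 lay below it (log2 fold change −1.17 ± 0.51 (SE), adjusted p = 0.263).

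The mice also differed by their numbers, which the labels give to flown and ground mice alike although they are different animals. On the first principal component (35.1% of variance) numbers 01 and 02 of both groups and GC_KO 04 lay on one side, from 18.6 to 39.5, and numbers 09, 11 and 12 of both groups on the other, from −28.0 to −19.7. Flight separated the groups on the second (16.0%), with FL_KO from 17.9 to 24.7 and GC_KO from −24.6 to −12.5. Genes of the circadian clock followed the numbers. Arntl, the activator of the clock, was at 4.42, 7.74, 6.94, 18.7, 18.9 and 21.9 TPM in GC_KO 01, 02, 04, 09, 11 and 12 and at 5.67, 9.39, 22.8, 23.4 and 25.2 TPM in FL_KO. Nr1d1, the repressor REV-ERBα, ran the opposite way, at 22.9, 25.7, 13.3, 1.04, 1.23 and 1.13 TPM in these ground mice and at 18.2, 12.8, 2.49, 2.5 and 2.34 TPM in the flown mice. Per1 was at 34.3, 33.6, 31.6, 16.5, 6.32 and 5.69 TPM in GC_KO and 43.2, 44.5, 6.65, 3.28 and 3.24 TPM in FL_KO. Numbers 01 and 02 were high and 11 and 12 low for Per1 in both groups. Pck1, the gluconeogenic enzyme with a daily rhythm, was at 1919.6, 2212, 1544, 615, 384 and 241 TPM in GC_KO and 2078, 1888, 683, 474 and 489.5 TPM in FL_KO, in the same order. The times at which the livers were taken are not given per mouse in the sources used here.

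The averages of both groups thus held mice with very unlike clock levels. None of 21 clock genes was called by edgeR or DESeq2, 3 had an unadjusted p under 0.05, and 1 was called higher with library totals and 1 by limma on TPM. Arntl (log2 fold change 0.23 ± 0.42 (SE), adjusted p = 0.869), Per1 (log2 fold change −0.16 ± 0.72 (SE), adjusted p = 0.957), Nr1d1 (log2 fold change −0.61 ± 0.86 (SE), adjusted p = 0.817) and Dbp (log2 fold change −0.98 ± 0.74 (SE), adjusted p = 0.597) had SEs of 0.42 or more. The smallest p of the list belonged to Nfil3, a repressor of Dbp targets, which did not overlap between groups (log2 fold change 0.37 ± 0.13 (SE), adjusted p = 0.129) and was called without GC_KO 01. With the mouse number as a block, 2 clock genes were called lower. Deviations from the group means correlated between the flown and the ground mouse of a number over all genes, with r from 0.22 to 0.37, although the same number was the best partner for only 2 of 5. With the block, 548 genes were called, 223 higher and 325 lower: 355 of the 448 were called in both fits, 93 were lost and 193 gained. Flown mice were higher than the ground mice of their number in all 5 numbers for 66.7% of PPARα targets, against 7.27% of all genes. This share comes from the same mice as the calls and is a description.

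**Figure D4:**
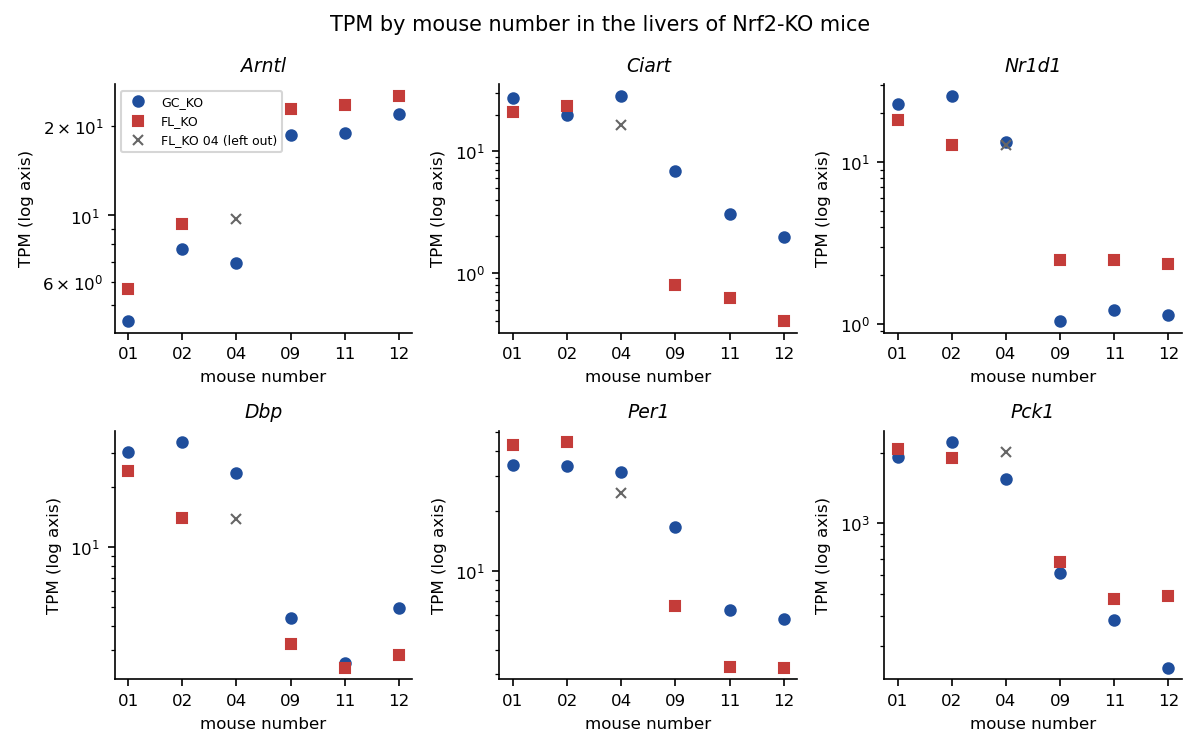
TPM on a log axis of 6 genes in Nrf2-KO livers, by mouse number (x axis), with circles for GC_KO, squares for FL_KO and a cross for the left-out mouse FL_KO 04. Among circles and among squares, Arntl is lower, and the other genes higher, in numbers 01, 02 and 04 than in 09, 11 and 12.

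The comparison with WT liver asked whether the response differed without Nrf2. In WT liver flight was followed by 206 genes called higher (1.53%) and 257 lower (1.91%). Of the 448 genes called in Nrf2-KO liver 164 were also called in WT liver in the same direction (36.6%, and 35.4% of the WT calls), none in the opposite direction, and 439 had the same sign. No gene was called for the difference between genotypes by edgeR (0%, smallest adjusted p = 0.409), 542 genes (4.03%) had an unadjusted p under 0.05, and DESeq2 called 1 gene. A difference of a size that these groups of 5 and 6 mice cannot detect is therefore possible for any gene below.

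PPARα targets had 14 called higher in WT liver (median 0.60), beside 15 in Nrf2-KO liver (median 0.59). Ketogenesis had 4 called in both, and Apoa4 changed by 4.0 in WT and 3.85 in Nrf2-KO liver (adjusted p of the difference = 1). Male-biased genes had 7 called lower in WT liver with a median of −0.74, close to that in Nrf2-KO liver. Female-biased genes had 2 called higher and 1 lower in WT liver, with a median of 0.26 beside 0.75 in Nrf2-KO liver, and 1 of 14 had an unadjusted p under 0.05 for the difference. MHC class II genes had 7 called lower with a median of −0.82. Kupffer markers had 8 of 12 called lower in WT liver (median −0.78), beside 2 in Nrf2-KO liver (median −0.54). The interaction had an unadjusted p under 0.05 by edgeR for 1 of the 12. In WT mice these markers summed to 122 to 250.4 TPM in GC_WT and 76.4 to 158 TPM in FL_WT. Their part in the MHC class II values was not tested. Urea cycle and amino acid genes had 8 called lower and 1 higher in WT liver. Gstm3 and Gstp1 were called lower in WT liver as well, by −1.70 and −0.88. Fgf21 rose by 4.56 in WT and by 3.13 in Nrf2-KO liver (adjusted p of the difference = 1).

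The change of cholesterol genes stood further apart between genotypes. Their TPM summed to 1266 to 3762 in GC_KO and 897 to 1912 in GC_WT. After flight the sums were 862.5 to 1679 in FL_KO and 859 to 1225 in FL_WT. Ground levels thus ran higher in GC_KO than in GC_WT, whereas flown levels were closer. How far this set the difference was not tested. In WT liver none of the 25 was called by edgeR (13 had an unadjusted p under 0.05), and the median was −0.54, beside 18 called and −1.55 in Nrf2-KO liver. The interaction had an unadjusted p under 0.05 for 13 of the 25, against 4.03% of all genes, and none passed the adjustment (Dhcr7, adjusted p = 1). Dhcr7 in WT mice was at 16.9, 26.3 and 46.6 TPM on the ground and 9.28, 13.5 and 21.4 TPM after flight (lowest, median and highest), and the change was −0.97 ± 0.30 (SE) on the log2 scale, with an adjusted p of 0.0732. Hmgcs1 changed by 0.064 in WT and −1.62 in Nrf2-KO liver, neither of them called (adjusted p of the difference = 1). Its median was 80.4 TPM in GC_KO and 30.0 TPM in GC_WT, beside 33.3 TPM in FL_KO and 33.1 TPM in FL_WT. Lipogenesis had 3 genes called lower in WT liver (median −0.32), and Scd1 changed by −1.95 in WT and −2.75 in Nrf2-KO liver (adjusted p of the difference = 1).

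Single genes with the smallest interaction p were B3galt1, Mbnl1, Gm10335 and Fam25c. B3galt1, a galactosyltransferase (chr2:67565871-68122689, plus strand), was at 7.61, 9.72 and 17.2 TPM in GC_KO and at 6.06, 4.15, 8.81, 6.79 and 5.81 TPM in FL_KO (log2 fold change −1.02 ± 0.19 (SE), adjusted p = 0.00367), and at 4.81, 6.44 and 7.78 TPM in GC_WT and 6.71, 8.03 and 11.2 TPM in FL_WT, where the log2 fold change was 0.37. The difference between genotypes was −1.39 by edgeR (adjusted p = 0.409), and B3galt1 was the gene called by DESeq2. Fam25c changed in Nrf2-KO liver by −1.10 without overlap, beside −0.35 in WT (adjusted p of the difference = 1). Mbnl1, a splicing regulator, changed by −0.39 and 0.035 (adjusted p of the difference = 1). Gm10335, annotated as a processed pseudogene, was listed at 0 TPM in 3 of 6 GC_KO and 2 of 5 FL_KO mice, and its fitted change turned sign without FL_KO 09. Saa2 was at 6.35, 8.88 and 16.6 TPM in GC_WT and 5.09, 6.83 and 9.16 TPM in FL_WT, beside the higher ground levels in Nrf2-KO mice given above. Among named list members, Saa2 changed by −0.58 in WT and −3.11 in Nrf2-KO liver (adjusted p of the difference = 1), Gstm6 by −0.47 and −0.98 (adjusted p = 1), Hfe by −0.058 and −0.46 (adjusted p = 1), and Abcc3 by 0.27 and 0.99 (adjusted p = 1). Collagens and matrix genes had 2 called lower in WT and none in Nrf2-KO liver, with medians of −0.54 and −0.0076, and 7 of 17 had an unadjusted p under 0.05 for the difference, against the same 4.03%. These 7 also come from the same mice and are not separate results.

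**Figure D5:**
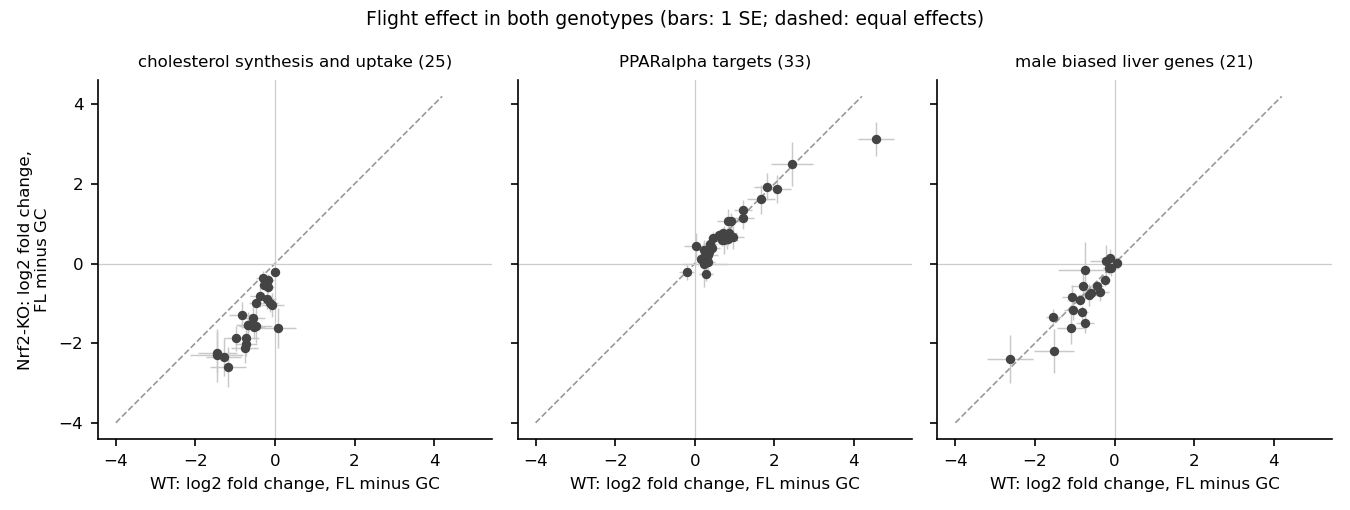
Log2 fold change after flight in Nrf2-KO liver (y axis) against that in WT liver (x axis) for the members of 3 lists, with bars of 1 SE and a dashed line where both are equal. Most cholesterol genes lie below the dashed line (medians −1.55 in Nrf2-KO and −0.54 in WT liver), and PPARα targets and male-biased genes lie around it.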

How the data were processed

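Libraries were made from poly(A) RNA of liver with a strand-specific kit and sequenced as single reads. Per the labels, reads were mapped to mm10 with STAR 2.6.1 and quantified with RSEM 1.3.1. The expected counts, deposited by the authors as unnormalized RSEM estimates, split reads that map to several genes. TPM, also deposited, is the RSEM estimate scaled by transcript length and library total. The strand setting of the counting is not given in the sources used here. Gene positions are from GENCODE on GRCm38, and 528 columns of values (other tissues and FPKM) were not used.

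Expected counts were rounded and analysed in R 4.3.3 with edgeR 4.0.16: filterByExpr by group, TMM factors and the quasi-likelihood test, with all 4 liver groups in 1 fit and Benjamini-Hochberg adjustment over 13433 of 54752 genes. The interaction was tested in the same fit. Totals were 14433209 to 15318155 counts per Nrf2-KO library. The procedure was tested on simulated data. As alternatives, the mouse number was added as a block, each mouse was left out in turn, FL_KO 04 was included, WT mice were left out, the filter was dropped, TMM was replaced by RLE factors or plain library totals, and DESeq2 1.42.0 or limma 3.58.1 (on log2 TPM with a pseudocount of 1 or 0.1) replaced edgeR.

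Flown and ground mice of a number are different animals. The numbers were used as a block because deviations from the group means correlated above 0.1 in all 5 numbers (0.22 to 0.37). The value with the block is given where it changed a call. Mice of different numbers also correlated, as FL_KO 02 with GC_KO 01 (0.53), so these values do not show that the numbers are pairs.

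The members and gene lists were chosen with earlier results of these data known. The rule for named genes took Nfe2l2, the 8 largest called changes in each direction without overlap of TPM and with a mean of at least 5 TPM, up to 3 called members per list with the smallest adjusted p and those against its direction, the member with the smallest p in lists without calls, 4 clock genes, and the 4 smallest interaction p. Other genes with values, among them Sqle, Hmgcs1, Idi1, Msmo1, Insig1, Fasn, Cpt1a, Ppara, Cyp7a1, Pck1, Nqo1, Gclc, Hmox1, Srxn1, Alb, Mup20, Csf1r, Folr2, Clec4f, Alas2, Cela1, Txnip, Hspa5, Pgd, Gstm2 and further list members, were chosen after their values were seen, and so were the 4 promoters. Some genes that the rule or the lists include are not reported here, although counts and medians of lists include them. The deposited columns hold no comparisons by the authors.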

Additional observations from a re-analysis of the deposited data

Results flagged for a closer look

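Of 162 groups of mice checked among the named genes, 10 values stood apart from the rest of their group. Chance flags about 1 in 20 groups, which is close to this share over FL_KO and GC_KO together. Most of the 10 were in FL_KO, so the share in FL_KO alone was higher and that in GC_KO lower. In FL_KO, mouse 02 stood apart for Fgf21 (21.5 TPM), mouse 01 for Acot3 (149.8 TPM) and Cyp2a22 (18.6 TPM), mouse 12 for Nsdhl (12.1 TPM), and mouse 09 for Plin2 (192.0 TPM) and Gm10335 (55.9 TPM). FL_KO 11 stood apart for 3 genes of the male pattern, Mup8 (6.65 TPM), Mup7 (9666.5 TPM) and Ugt2b38 (16.1 TPM), and was the flown mouse nearest to the ground mice in each. In GC_KO, mouse 11 stood apart for Nsdhl (60.8 TPM). Without FL_KO 01 the call of Acot3 was lost. Gm10335 changed sign without FL_KO 09.

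The flight response differed between genotypes for 1 gene by DESeq2, B3galt1, with a difference of −1.38 on the log2 scale (Nrf2-KO minus WT, adjusted p = 0.0058). By edgeR the adjusted p of this gene was 0.409.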

How the results depend on the processing

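Against 448 genes called (176 higher, 272 lower), DESeq2 gave 650 (271 and 379), with 445 of the 448 among them, limma on log2(TPM + 1) gave 1491 (1338 and 153) over 8349 genes, limma on log2(TPM + 0.1) 1478 (1329 and 149), library totals 734 (546 and 188), no filter 298 (100 and 198) over 26902 genes, FL_KO 04 included 577 (261 and 316), RLE factors 443 (178 and 265), and only FL_KO and GC_KO in the fit 204 (68 and 136). With the replicate block there were 548 (223 and 325), and 308 (110 and 198) with the block in only FL_KO and GC_KO. Leaving out a mouse gave 281 (without FL_KO 02) to 427 (without GC_KO 09) calls, 104 to 175 higher and 177 to 266 lower, and 206 genes kept their call in each of these 11 fits. The interaction had 0 calls except 1 by DESeq2. Nfe2l2 passed the threshold by limma on TPM, with 0.42 for the pseudocount of 1 and 0.44 for 0.1, and in no other setting.

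Directions of the genes taken by the naming rule held except for Per1, which was 0.08 without FL_KO 09, 0.12 without FL_KO 11, 0.12 without FL_KO 12, 0.03 without GC_KO 01 and 0.02 without GC_KO 02 (range over the mice left out −0.73 to 0.12), Nr1d1, which was 0.075 by limma on log2(TPM + 0.1), and Gm10335, which was −0.29 without FL_KO 09 (range −0.29 to 3.04). None of these 3 was called. Of other genes shown, Nqo1 reached −0.049 and Pck1 0.14 when a mouse was left out, and Pck1 was 0.12 with the block. Among genes taken by the rule, the replicate block took 6 calls and gave 1 (Jun), and only FL_KO and GC_KO in the fit took 21. Of other genes shown, the block took the calls of Csf1r and Folr2 and gave, among others, those of Hmgcs1, Cpt1a and Gclc. The causes were not tested. With 5 and 6 mice small changes can be missed, and genes near 1 TPM rest on few reads.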

Other observations

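Flight mouse 04, which had an intestinal hemorrhage and is in the fit only where stated, was set against the other Nrf2-KO mice for the 16 genes with the largest changes. Its TPM lay beyond the range of GC_KO in the direction of FL_KO for 15 of the 16, and within the range of the other 5 flown mice for 11.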
